A study of Mus musculus with 7 samples.

Results

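The expression of 10 genes of myoblast fusion and cell-cell adhesion was examined. They were chosen by symbol from the 26607 genes listed in RNA-seq tables of C2C12 myotubes. The 10 members are Tmem8c (the older symbol of Mymk, myomaker), Cdh15, Cdh2, Ncam1, Jam2, Jam3, Dock1, Dock5, Kirrel and Bai3 (the older symbol of Adgrb3). All 10 symbols are listed. Of these, 9 had reads in every library, and Bai3 was listed at 0 in all 7.

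C2C12 is an established mouse myoblast line whose cells fuse into multinucleated myotubes when serum is lowered. The control group was 3 libraries of untreated C2C12 myotubes, with replicate numbers 1, 3 and 4. The EPS group was 4 libraries, with replicate numbers 1 to 4, of myotubes given electrical pulse stimulation (EPS), which makes cultured myotubes contract. Per the study's methods, EPS began 3 days after differentiation in 2% serum, ran for 24 h at 1 Hz and was followed by 1 h of rest. The labels give no other treatment or allele for either group. The model is a single cell line, cultured without nerve or other tissues, and nothing in the labels says that the libraries came from separate cultures, so p-values measure only the spread between these libraries.

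Fusion proceeds in steps. Myoblasts recognize and hold each other through cadherins, NCAM, junctional adhesion molecules and nephrin-like immunoglobulin proteins. Signals from the contact site reach the GTPase RAC1 through ELMO and DOCK proteins and remodel actin. Myomaker and its partner myomixer then act on the membranes themselves, so that the cells become continuous. Myotubes keep adding nuclei by the same route, and several of these genes are targets of the myogenic transcription factors.

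Reads per library were between 16616917 and 22120641. The values are CPM, read counts scaled to a common library total, and whole reads could be recovered from them. The detection floor of 3 reads corresponded to 0.137 to 0.181 CPM in the libraries other than control replicate 4, and it covers counting error only. Control replicate 4 listed 359 genes at 1 to 5 reads where the other libraries listed 2670 to 3181, so very low genes are incomplete in it and the floor is not a bound there. The 9 members with reads had 321 to 19865 reads in each library and lie far above this range.

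None of the 9 members with reads passed the test between the control and EPS groups in limma, a linear model fitted across all genes on log2(CPM + 1). With the threshold set at P under 0.01 together with 2-fold, 0 of 9 passed, where 1.41% of the 19144 genes tested did. By the same thresholds 0 of 9 passed in edgeR's quasi-likelihood test (3.29% of all genes), the edgeR exact test (3.62%) and DESeq2 (3.06%). At an adjusted p under 0.05, 0 of 9 passed, against 0.141% of all genes. These shares include many very low genes, while the members lie far above them. In a limma fit of only the 12256 genes with a mean of at least 1 CPM, 310 genes passed P under 0.01 and 2-fold. In that fit 121 genes had an adjusted p under 0.05, and 0 members passed either rule. At an unadjusted P under 0.05 alone, the count of members in limma over the 19144 genes was also 0, against 11.6% of all genes. Both edgeR tests also gave 0, where 11.6% and 11.3% of all genes passed, and DESeq2 gave 1, Cdh15, where 10.6% did. The estimates were higher in the EPS group for 5 members and lower for 4, with a median log2 fold change of 0.04, beside 0.041 over all genes tested. Over the 12256 genes with a mean of at least 1 CPM the median was 0.10 as deposited and -0.0048 after median-of-ratios scaling. Of the 269 genes past P under 0.01 and 2-fold among all tested, 68.8% were higher in the EPS group, and of the 252 that passed after quantile normalization 51.6% were. For each of the 9, the 95% interval of the log2 fold change lay within 2-fold in both directions, which holds for 74.8% of genes with a mean of at least 1 CPM. Smaller differences lie within these intervals and were not detectable at this spread.

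**Figure D1:**
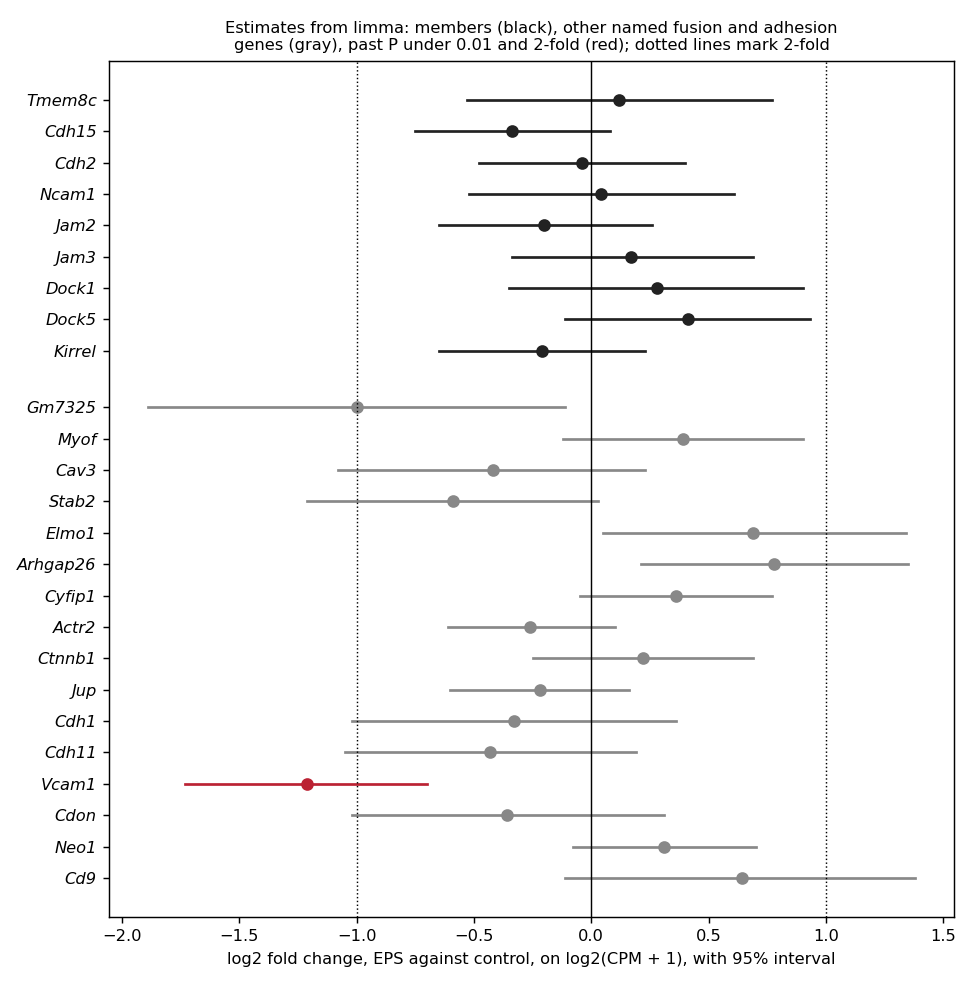
Log2 fold change of EPS against control from limma on log2(CPM + 1), as points with 95% intervals, for the 9 members with reads and for the other named fusion and adhesion genes. All 9 member intervals cross 0 and stay inside the dotted lines at 2-fold, while that of Vcam1 runs from -1.73 to -0.70.

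Cdh15 encodes M-cadherin, the cadherin of muscle precursors and of satellite cells. It was the only member whose groups did not overlap. This is 1 of the 9 members with reads, near the share of 10.6% of all genes tested whose groups did not overlap. The promoter window of Cdh15 is shown because of this separation, and no link between sequence and level was tested. The window holds 300 bases around the start site in the RefSeq table, most of it before that site, on the plus strand of GRCm38.p6 at chr8:122848124-122848423. The window of Kirrel, on the minus strand at chr3:87174488-87174787, is printed with it for contrast. The GENCODE models of both genes start earlier than the RefSeq sites, so that the Cdh15 window lies wholly, and the Kirrel window mostly, inside the annotated gene. Capitals mark every E-box, CANNTG, the general binding site of myogenic helix-loop-helix factors such as MyoD and myogenin. The motif is its own reverse complement, so both strands are covered.
Cdh15: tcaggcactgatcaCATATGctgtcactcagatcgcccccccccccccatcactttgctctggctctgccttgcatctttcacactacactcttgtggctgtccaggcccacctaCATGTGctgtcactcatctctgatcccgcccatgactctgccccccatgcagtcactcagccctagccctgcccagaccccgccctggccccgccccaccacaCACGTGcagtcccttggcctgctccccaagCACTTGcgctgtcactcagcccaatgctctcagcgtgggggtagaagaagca
Kirrel: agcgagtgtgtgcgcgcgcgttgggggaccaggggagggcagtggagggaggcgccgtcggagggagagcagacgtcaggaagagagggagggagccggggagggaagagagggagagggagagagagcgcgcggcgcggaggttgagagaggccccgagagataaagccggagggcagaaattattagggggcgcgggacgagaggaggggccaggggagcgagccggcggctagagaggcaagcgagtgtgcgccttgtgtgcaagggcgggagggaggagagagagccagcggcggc
The Cdh15 window held 4 E-boxes, with first bases at -236, -135, -32 and -2 relative to the start site, and the Kirrel window held 0. The promoter windows of Dock1 and Bai3 held 1 and 2. Of all 32851 promoter windows of this length, 72.3% held at least 1 CANNTG. The more specific forms CAGCTG (in 16.3% of all windows) and CAGGTG or its reverse complement (in 20.2%) were in none of these 4 windows. Both are also matches to CANNTG. A match is a sequence description only, and its absence says only that these letters are not in this window.

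Cdh15 (ENSMUSG00000031962.6) spans 122847966 to 122867397 on chromosome 8 (GRCm38). Cdh15 was at 458, 443 and 554 CPM in control replicates 1, 3 and 4, and 410, 403, 401 and 320 CPM in EPS replicates 1 to 4. All 4 EPS libraries lay below the lowest control, and EPS replicate 4 was the lowest. Groups did not overlap in 10.6% of all genes tested, and in 2.85% the EPS libraries were the lower ones. Control libraries averaged 485 ± 60.4 CPM (SD, n = 3) and EPS libraries 384 ± 42.3 CPM (SD, n = 4), a ratio of 0.791. The log2 fold change was -0.34 (95% interval -0.75 to 0.08, adjusted p = 0.521 from limma). The exact two-sided permutation test gave p = 0.0286, the smallest it can give. The difference therefore did not pass in the model across all genes, and the interval reached from 0.594 to 1.06 times the control. In such bulk libraries fewer cells of a type and less RNA per cell cannot be told apart.

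Cdh2 encodes N-cadherin, the other classical cadherin of myoblasts, which is also made by many other cells. It (ENSMUSG00000024304.14) lies on chromosome 18 from 16588877 to 16809246. Its level was 257, 187 and 200.3 CPM in the control libraries and 233, 186, 248.9 and 169 CPM in EPS replicates 1 to 4. The groups overlapped throughout, and the means differed by less than the spread, at 215 ± 37.2 (SD, n = 3) and 209 ± 38.1 CPM (SD, n = 4). On the log2 scale the difference was -0.04 (95% interval -0.48 to 0.40, adjusted p = 0.938 from limma).

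The balance of M- to N-cadherin was compared as a ratio within each library, so that the scaling of the library nearly cancels. Cdh15 was 1.78, 2.37 and 2.77 times Cdh2 in CPM in the control and 1.76, 2.17, 1.61 and 1.90 times in EPS replicates 1 to 4. The ratios overlapped, since control replicate 1 lay inside the EPS range. The log2 ratio was 0.30 lower in the EPS group, a change of -0.30 (standard error 0.206), with an exact permutation p = 0.171. It ran from -0.47 without control replicate 1 to -0.15 without control replicate 4, and was -0.18 after the loess correction. This was 1 of 3 ratios tested, and the Benjamini-Hochberg adjusted exact p over the 3 was 0.257.

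Ncam1 encodes the neural cell adhesion molecule, an immunoglobulin-superfamily protein on the surface of myoblasts and young myotubes. It (ENSMUSG00000039542.16) lies on chromosome 9 from 49502136 to 49798925. Its level was 715, 485 and 500.5 CPM in the control libraries and 648, 546, 711 and 433 CPM in EPS replicates 1 to 4. The highest library was a control and the lowest an EPS library, and the groups overlapped. Ncam1 differed by 0.04 on the log2 scale (95% interval -0.52 to 0.61, adjusted p = 0.951 from limma), and its sign changed to -0.07 after median-of-ratios scaling. An antisense gene covers 4.81% of the exon length. Per the labels the libraries were made with a directional kit, which keeps the strand, but whether the counting used it is not given in the sources used here.

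**Figure D2:**
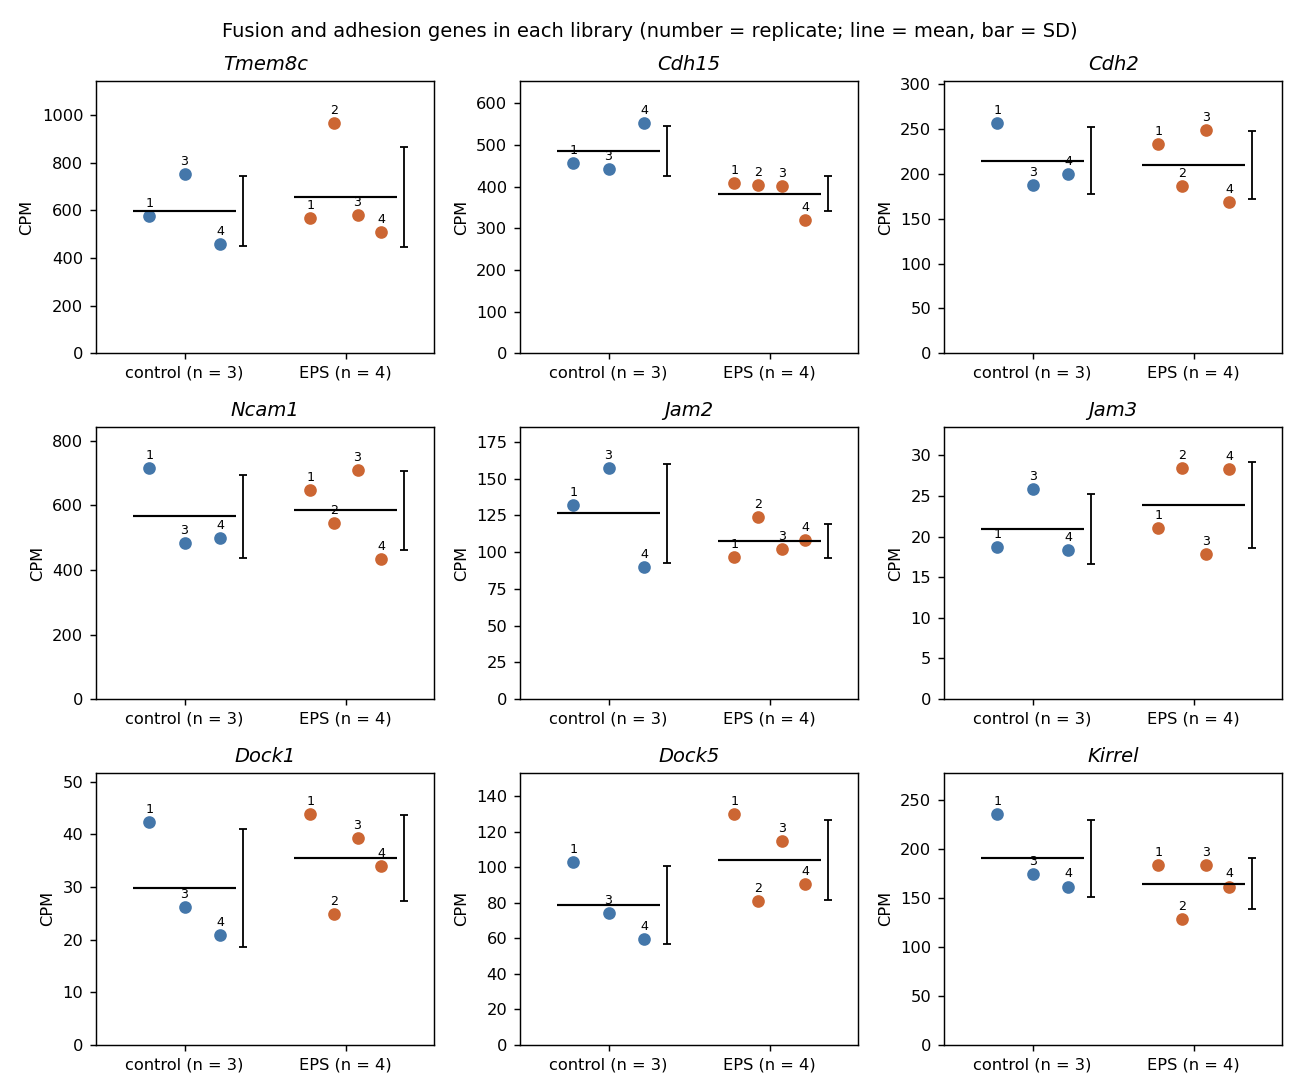
CPM of each of the 9 members with reads in the 3 control and 4 EPS libraries, numbered by replicate, with the group mean as a line and the SD as a bar. The groups are apart in Cdh15 alone, from 443 CPM in the lowest control to 410 CPM in the highest EPS library, and overlap in the other 8 panels.

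Jam2 and Jam3 encode the junctional adhesion molecules B and C, immunoglobulin-superfamily proteins that bind each other across the contact between cells. Jam2 (ENSMUSG00000053062.16) lies on chromosome 16 from 84774123 to 84825928. Its level was 132, 157 and 90.0 CPM in the control libraries and 97.0, 124, 102 and 108 CPM in EPS replicates 1 to 4. All 4 EPS libraries lay inside the control range, which control replicate 4 set at its lower end. Its log2 fold change was -0.20 (95% interval -0.65 to 0.26, adjusted p = 0.767 from limma).

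Jam3 (ENSMUSG00000031990.15) lies on chromosome 9 from 27097384 to 27155421. Its level was 18.7, 25.9 and 18.3 CPM in the control libraries and 21.1, 28.4, 17.9 and 28.3 CPM in EPS replicates 1 to 4. EPS replicates 2 and 4 were above the control libraries and EPS replicate 3 was below them. Jam3 differed by 0.17 on the log2 scale (95% interval -0.34 to 0.69, adjusted p = 0.813 from limma). An antisense gene covers 36.2% of its exon length, and without the strand setting of the counting it is not known whether their reads were kept apart.

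Within a library, Jam2 was 7.06, 6.07 and 4.93 times Jam3 in CPM in the control and 4.59, 4.37, 5.73 and 3.80 times in EPS replicates 1 to 4. Only EPS replicate 3 lay inside the control range, and the other EPS libraries were below it. The log2 ratio differed by -0.37 (standard error 0.19), with an exact permutation p = 0.143 and an adjusted exact p of 0.257 over the 3 ratios. The difference did not pass the test, and ran from -0.51 without control replicate 4 to -0.25 without control replicate 1.

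Kirrel encodes NEPH1, a relative of the insect proteins by which muscle founder cells recognize their fusion partners. It (ENSMUSG00000041734.15) lies on chromosome 3 from 87078593 to 87174747. Its level was 236, 175 and 162 CPM in the control libraries and 184, 129, 184 and 162 CPM in EPS replicates 1 to 4. Control replicate 1 was the highest and EPS replicate 2 the lowest, with the other 5 libraries close together. For Kirrel the log2 fold change was -0.21 (95% interval -0.65 to 0.23, adjusted p = 0.733 from limma).

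Bai3 encodes an adhesion G protein-coupled receptor that can bind ELMO proteins. It (ENSMUSG00000033569.17, listed as Adgrb3 in the annotation) lies on chromosome 1 from 25067476 to 25829707. It had 0 reads in each of the 7 libraries, which allows a level of up to 0.137 CPM in EPS replicate 3 and up to 0.181 CPM in control replicate 3, the extremes of the 6 libraries in which the floor holds. No comparison between the groups was possible for it. Its relative Bai1, also implicated in fusion, was at 0 as well (named after its values were seen).

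Dock1 and Dock5 encode exchange factors that load RAC1 with GTP together with ELMO proteins. Dock1 (ENSMUSG00000058325.6) lies on chromosome 7 from 134670654 to 135173639. Its level was 42.4, 26.1 and 20.8 CPM in the control libraries and 43.8, 24.9, 39.2 and 34.0 CPM in EPS replicates 1 to 4. The control libraries spread over nearly the whole range of the EPS libraries. Its estimated log2 fold change was 0.28 (95% interval -0.35 to 0.90, adjusted p = 0.756 from limma).

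Dock5 (ENSMUSG00000044447.5) lies on chromosome 14 from 67752135 to 67933442, and had the largest estimate of the members in limma on CPM as deposited, while Cdh15 had the largest after quantile or median-of-ratios scaling. Its level was 103, 74.2 and 59.4 CPM in the control libraries and 130, 81.0, 115 and 90.9 CPM in EPS replicates 1 to 4. EPS replicates 1 and 3 were above the control libraries, while the other two lay below control replicate 1. Dock5 differed by 0.41 on the log2 scale (95% interval -0.11 to 0.93, adjusted p = 0.538 from limma), and the exact permutation p was 0.171. It ranged from 0.23 without control replicate 4 to 0.62 without control replicate 1, where the groups did not overlap, as in 17.5% of all genes without that library.

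The balance of the exchange factors was compared in the same way. Dock1 was 0.413, 0.352 and 0.351 times Dock5 in CPM in the control and 0.337, 0.308, 0.340 and 0.374 times in EPS replicates 1 to 4. The log2 ratio differed by -0.13 (standard error 0.0899, exact permutation p = 0.257, adjusted exact p = 0.257), with EPS replicate 4 inside the control range. It was -0.06 without control replicate 1 and -0.18 without EPS replicate 4.

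**Figure D3:**
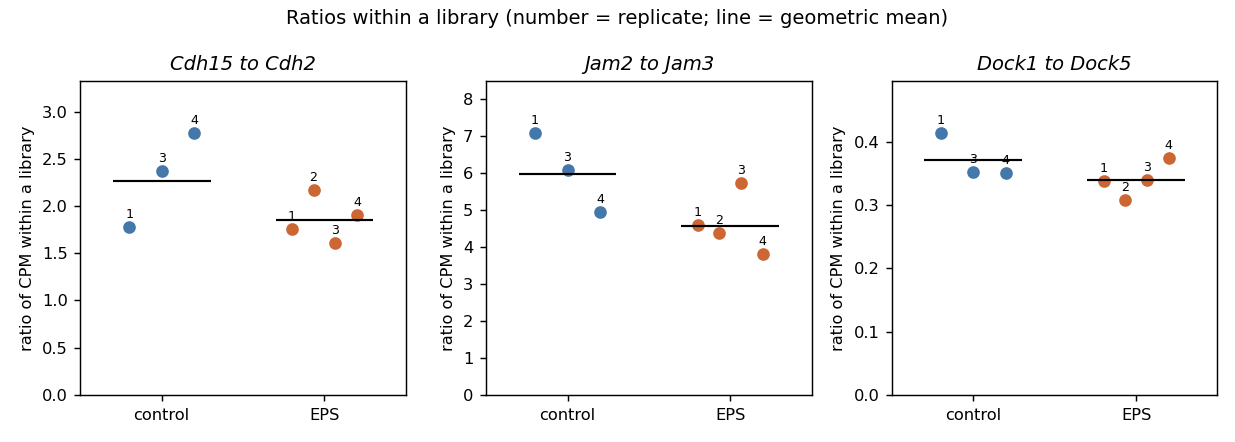
Ratio of the CPM of Cdh15 to Cdh2, Jam2 to Jam3 and Dock1 to Dock5 within each library, numbered by replicate, with the geometric mean of each group as a line. The groups overlap in all 3 panels, with Dock1 at 0.308 to 0.413 times Dock5 over the 7 libraries.

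Tmem8c encodes myomaker, the muscle-specific membrane protein without which myoblasts do not fuse. It (ENSMUSG00000009214.9, Mymk in the annotation) lies on chromosome 2 from 27061636 to 27072179. Its level was 574, 752 and 460 CPM in the control libraries and 569, 968, 579 and 507 CPM in EPS replicates 1 to 4. EPS replicate 2 stood above all other libraries, and the other 3 EPS libraries lay inside the control range. Control libraries averaged 595 ± 148 CPM (SD, n = 3) and EPS libraries 655 ± 211 CPM (SD, n = 4). Tmem8c differed by 0.12 on the log2 scale (95% interval -0.53 to 0.77, adjusted p = 0.879 from limma), and it was -0.08 without EPS replicate 2.

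Myomixer, the small partner of myomaker, is listed under its older symbol Gm7325 (ENSMUSG00000079471.4, chromosome 17 from 45600971 to 45602102). It was at 42.9, 67.3 and 76.6 CPM in the control libraries and at 21.2, 64.3, 28.4 and 20.02 CPM in EPS replicates 1 to 4. In 3 EPS libraries it was below every control library, and EPS replicate 2, the library with the most Tmem8c, was inside the control range. Gm7325 had a log2 fold change of -1.0 (95% interval -1.89 to -0.11), with an adjusted p of 0.368 in limma and an exact permutation p = 0.114. It did not pass P under 0.01 and 2-fold in limma. It did so in both edgeR tests (adjusted p = 0.11 in the quasi-likelihood test), in DESeq2, after the loess correction, with the replicate block and in the limma fit without EPS replicate 2. The block fit also leaves EPS replicate 2, which has no same-numbered control, out of the estimate. Over the fits that each omit a library, the estimate of Gm7325 ran from -1.36 without EPS replicate 2 to -0.82 without EPS replicate 4, and the other 6 fits did not pass.

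To order the members by level, CPM were divided by the length of all exons of a gene in kilobases. In the control, Tmem8c was at 394 ± 97.6 CPM per kb (SD, n = 3), Cdh15 at 149 ± 18.6 and Ncam1 at 65.4 ± 14.8. Over the 7 libraries the ranges of these 3 genes did not touch each other or that of the next gene. Cdh2, Kirrel and Jam2 followed at 26.6 ± 4.61, 25.6 ± 5.29 and 20.9 ± 5.61 CPM per kb (SD, n = 3), and their ranges overlapped. Jam3 and Dock5, at 6.55 ± 1.33 and 6.47 ± 1.81 CPM per kb, overlapped too, and Dock1 was lowest at 3.19 ± 1.21 CPM per kb (SD, n = 3 each). Among the 18130 tested genes with a length, this level in the control put Tmem8c above 99.7% of genes, Cdh15 above 98.7% and Dock1 above 54.4%. In the EPS group the order was the same except that Dock5, at 8.56 ± 1.83, came before Jam3, at 7.47 ± 1.65 CPM per kb (SD, n = 4), a pair whose ranges overlap. With the longest protein-coding transcript as the length, the only change of order in the control was that Jam2 came before Kirrel.

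**Figure D4:**
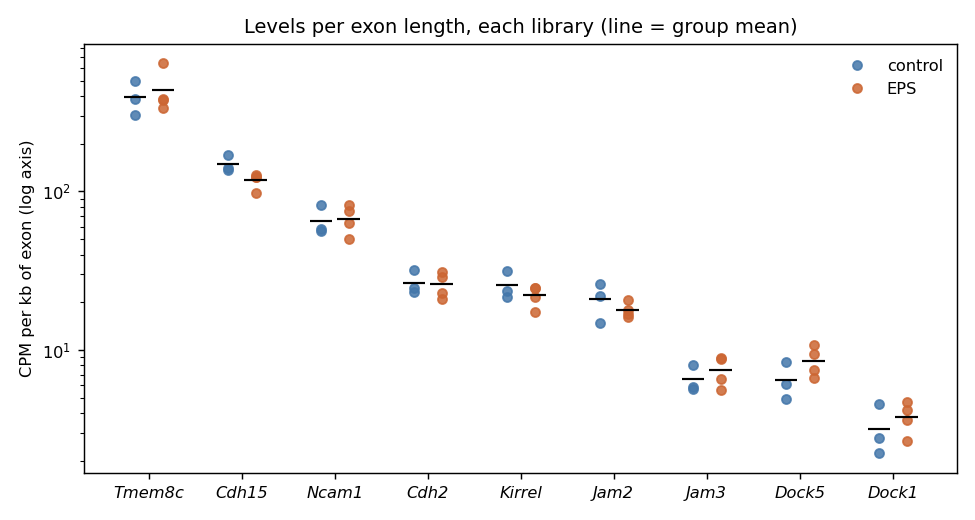
CPM per kilobase of exon of the 9 members with reads, on a log axis, in the control and EPS libraries, with group means as lines. Tmem8c, Cdh15 and Ncam1 each stand apart from the next gene, and levels fall from 394 CPM per kb for Tmem8c to 3.19 for Dock1 in the control means.

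The SD between libraries was 12.5% to 37.8% of the mean in the control and 10.9% to 32.1% in the EPS group, while the counting error of the lowest library was between 1.02% and 5.58%. The libraries that were high or low were shared by several members and crossed the groups. Of the 5 members with over 7 kb of exon (Kirrel, Cdh2, Ncam1, Dock1 and Dock5, a split chosen after seeing the values), all 5 were above their own mean in control replicate 1, EPS replicate 1 and EPS replicate 3, and all 5 below it in control replicate 4 and EPS replicate 2. Of the 4 shorter members, 0 were above their mean in EPS replicates 1 and 3, and 3 were in EPS replicate 2.

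Median deviations over all genes also differed with length. Over 1469 genes with under 2 kb of exon and a mean of at least 1 CPM, the median deviation from the gene mean on the log2 scale was 0.38 in EPS replicate 2, -0.35 in control replicate 1 and -0.22 in EPS replicate 3. Over 5332 genes with over 5 kb, it was 0.02, 0.05 and 0.08 in the same libraries, and -0.21 in control replicate 4. After a loess correction of each library for exon length and GC content, chosen after seeing the data, the SD on the log2 scale became smaller in 8 of the 9 members in the control and in 9 of 9 in the EPS group. The exception was Tmem8c, whose control SD went from 0.355 to 0.563. The correction subtracts a length and GC trend from each library, so a smaller SD is partly built into it. The share of all genes with a smaller SD was not computed. No member passed P under 0.01 and 2-fold after the correction. The smallest P was 0.0473, for Jam2, and the log2 fold change of Tmem8c was -0.02. Cdh15, at -0.33, and Kirrel, at -0.28, then had groups that did not overlap, with the EPS libraries lower, as in 5.25% of all genes after the correction.

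**Figure D5:**
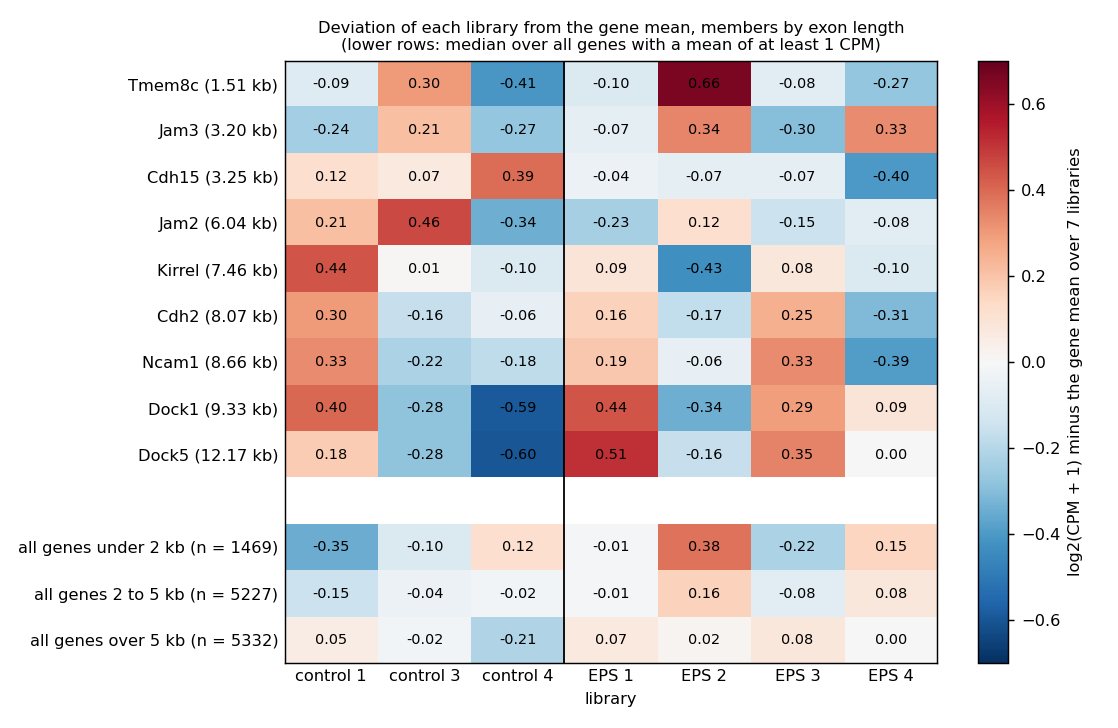
Difference of each library's log2(CPM + 1) from the gene's mean over the 7 libraries, for the members ordered by exon length and, in the lower rows, as the median over all genes of 3 length classes. Dock1 and Dock5 reach -0.59 and -0.60 in control 4 and 0.44 and 0.51 in EPS 1, and Tmem8c reaches 0.66 in EPS 2, where genes under 2 kb have 0.38, but -0.41 in control 4 and -0.27 in EPS 4, where they have 0.12 and 0.15.

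The other genes of fusion and adhesion were taken from 4 lists of 68 genes, of which 67 are listed in the files and 63 had reads. In limma, 0 rose and 1, Vcam1, fell past P under 0.01 and 2-fold, where 0.966% and 0.439% of all genes did. After adjustment 0 genes of the lists had p under 0.05 in this limma fit, and before it 6 of 63 did, where 11.6% of all genes did. The counts of genes past P under 0.01 and 2-fold in the other tests were 3 in edgeR's quasi-likelihood test (Vcam1, Gm7325 and Icam1), where 3.29% of all genes passed, and 2 in DESeq2 (Vcam1 and Gm7325), where 3.06% did. Icam1, named after its values were seen, was at 1.58 CPM in control replicate 4 and at most 0.049 CPM in the other libraries. The median log2 fold change over the 63 was 0.017, beside 0.041 over all genes tested.

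Vcam1 encodes a surface receptor through which myoblasts bind integrin alpha-4 on their neighbors, and lies on chromosome 3 from 116109949 to 116129688 (ENSMUSG00000027962.14). Its level was 92.1, 119 and 90.5 CPM in the control libraries and 56.3, 37.2, 30.6 and 50.6 CPM in EPS replicates 1 to 4. The highest EPS value was well under the lowest control value. Vcam1 had a log2 fold change of -1.21 (95% interval -1.73 to -0.70), with an adjusted p of 0.0914 in limma and an exact permutation p = 0.0286. The adjusted p ranged from 6.04e-05 in DESeq2 to 0.541 with the replicate block, under which Vcam1 was at -1.15 and no longer passed P under 0.01. In limma the adjusted p was 0.0317 at a mean of at least 1 CPM, 0.0425 with a pseudocount of 0.1 and 0.0498 after the loess correction. It was 0.0765 with a pseudocount of 0.5, 0.0799 after quantile scaling, 0.0721 after median-of-ratios scaling and 0.0884 to 0.191 with a library left out.

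In the list of membrane steps, 10 of 11 genes had reads and none passed both thresholds in limma, while Gm7325 did in the other fits described with its values. Besides Gm7325, Stab2, a receptor for phosphatidylserine, averaged 3.49 ± 0.549 CPM over the control libraries (SD, n = 3) and 2.06 ± 0.771 CPM over the EPS libraries (SD, n = 4), and its groups did not overlap (adjusted p = 0.453 from limma). Myof, the myoferlin gene of membrane fusion and repair, had a log2 fold change of 0.39, and Cav3, the caveolin of muscle, of -0.42. Without control replicate 4 these were 0.20 and -0.17, without control replicate 1 Cav3 was at -0.65, and without EPS replicate 4 Stab2 was at -0.38, against -0.59 with all libraries. In the RAC, ELMO and actin list, 25 of 26 genes are listed in the files, 17 estimates were higher and 8 lower, and none passed. Arhgap26 had a log2 fold change of 0.78 (95% interval 0.21 to 1.35, adjusted p = 0.261 from limma) at a level of only 0.956 ± 0.598 CPM (SD, n = 3) in the control. Elmo1, at 0.598 ± 0.753 CPM over the control libraries (SD, n = 3), had a log2 fold change of 0.69 and was at 0 in control replicate 4, the library that lacks low genes. Cyfip1 and Actr2, parts of the actin machinery, had log2 fold changes of 0.36 and -0.26, which were 0.22 without control replicate 4 and -0.14 without control replicate 1. Elmo1 ran from 0.41 without control replicate 4 to 1.05 without control replicate 3, where it passed both thresholds, as Arhgap26 did at 1.02 without control replicate 4. With a pseudocount of 0.1 Elmo1 was at 1.86 and Arhgap26 at 1.30. In edgeR's quasi-likelihood test they were at 1.21 and 1.14, and neither gene passed in these 2 settings.

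In the list of cadherin partners, 10 of 11 genes had reads and none passed. Ctnnb1 and Jup, which encode beta- and gamma-catenin, had log2 fold changes of 0.22 and -0.22, with intervals from -0.25 to 0.69 and from -0.60 to 0.16. Cdh11 and Cdh1 had log2 fold changes of -0.43 and -0.33, and Cdh1 was at most 3.38 CPM in any library. Cdh11 ran from -0.70 without control replicate 4 to -0.19 without control replicate 3, and Cdh1 from -0.61 without control replicate 3 to -0.18 without control replicate 1. Ctnnb1 was at 0.14 without control replicate 4. In the list of other surface adhesion proteins, 18 of 20 genes had reads, 9 estimates were higher and 9 lower. Cdon and Neo1, receptors that support myogenic differentiation, had log2 fold changes of -0.36 and 0.31, and the tetraspanin gene Cd9 of 0.64, with an adjusted p of 0.503 in limma. Cdon ran from -0.54 without control replicate 4 to -0.17 without EPS replicate 4, Neo1 from 0.20 without control replicate 4 to 0.49 without control replicate 1, and Cd9 from 0.44 without EPS replicate 2 to 0.90 without control replicate 3.

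The label of the cells was checked against marker lists, in which no gene was at 0 in all libraries. All 12 myotube markers had reads and their summed level was 21300 to 24200 CPM in the control and 15600 to 23000 CPM in the EPS group. Of these, 0 passed both thresholds in limma, where 1.41% of all genes did, and 11 of 12 estimates were lower in the EPS group. Actn2, of the sarcomere Z-disc, had an estimate of -0.99 on the log2 scale (adjusted p = 0.177 in limma), just under 2-fold, and its groups did not overlap. Actn2 passed both thresholds after quantile scaling (-1.08), median-of-ratios scaling (-1.10) and the loess correction, with a pseudocount of 0.1, and in both edgeR tests (-1.14, adjusted p = 0.0202 in the quasi-likelihood test) and DESeq2. It also passed without control replicate 3 (-1.27) and without EPS replicate 3 (-1.13). With the replicate block Actn2 was at -0.91, and without control replicate 1 at -0.77, and it passed P under 0.01 in neither. Myog, Mef2c and Ckm had estimates of -1.07, -0.80 and -0.63 in limma, and Myog passed in both edgeR tests (-1.39) and DESeq2. Myog was at 1794 CPM in control replicate 4, and at 473 and 565 CPM in control replicates 1 and 3. Without control replicate 4 the estimates of Myog and Ckm were -0.47 and -0.24, and without EPS replicate 4 that of Mef2c was -0.44.

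Proliferating cell markers were higher in all 8 estimates, and their summed level was 285 to 389 CPM in the control and 442 to 1280 CPM in the EPS group. All 8 had an unadjusted P under 0.05 in limma, where 11.6% of all genes did. Of the 8, 1 rose past both thresholds in limma, where 0.966% of all genes did. This was Birc5, by 1.19 on the log2 scale (adjusted p = 0.234 in limma). Birc5 did not pass after quantile or median-of-ratios scaling, at 1.06 and 1.09, nor after the loess correction, at 1.05, or with the replicate block, at 1.31. It also did not pass without any one control library, at 1.15 to 1.24, without EPS replicate 1, at 1.17, or without EPS replicate 4, at 0.87. Mki67, Ccnb1 and Plk1 had log2 fold changes of 1.27, 1.38 and 1.10 in limma, and did not pass. They did pass with a pseudocount of 0.1 and at a mean of at least 1 CPM. Without EPS replicate 2 Mki67 (1.63) and Plk1 (1.38) passed, and Mki67 did with the replicate block. Ccnb1 passed with a pseudocount of 0.5, without control replicate 3 (1.84) and without EPS replicate 3 (1.60). In edgeR's quasi-likelihood test Birc5, Mki67, Ccnb1 and Plk1 all passed both thresholds, where 3.29% of all genes did. The estimates of the first 3 were 1.30, 1.35 and 1.29. These genes also passed in DESeq2, where 3.06% of all genes did. They were named from the list of 8 by their P in limma. The list of unfused myoblasts and reserve cells had 7 of 8 estimates lower and 0 past both thresholds in limma, where 1.41% of all genes passed. At an unadjusted P under 0.05, 3 were lower, where 11.6% of all genes passed in either direction. The groups of 2 did not overlap, where 2.85% of all genes were apart and lower. The summed level of this list was 358 to 445 CPM in the control and 245 to 300 CPM in the EPS group. Myod1, Id1, Id3 and Hes1 had log2 fold changes of -0.88, -1.09, -0.96 and -0.51 in limma. Myod1 passed both thresholds without control replicate 3 (-1.07) and without EPS replicate 2 (-1.02). Id3 also passed without EPS replicate 2 (-1.27). Id1 passed after quantile (-1.22) and median-of-ratios scaling and the loess correction, with a pseudocount of 0.1 and at a mean of at least 1 CPM. Id1 and Id3 did so in both edgeR tests (-1.39 and -1.07) and DESeq2. Without control replicate 4 the estimate of Id1 was -0.65. EPS replicate 4, the lowest library in Cdh15, Cdh2 and Ncam1, was the highest in Mki67, at 452 CPM. EPS replicate 1 came next in Mki67, at 391 CPM, and was above the group mean in all 3 of these adhesion genes. The part of these cell states in the levels of the members was not tested.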

How the data were processed

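Per the labels and the study's methods, RNA of C2C12 myotubes was sequenced as 100 bp reads, after a library preparation that keeps the strand. The submitters' processing notes name STAR 2.5.4b and GRCm38, and the strand setting and counter are not given in the sources used here. The authors deposited 1 table of CPM (read counts scaled to a common total) per library for 26607 genes. Every value was a whole number of reads within 0.05 reads, and these recovered reads were used in edgeR and DESeq2.

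The 19144 genes with a read in any library entered the tests in R 4.3.3 with limma 3.58.1 on log2(CPM + 1), two-sided, with Benjamini-Hochberg adjustment over all of them, so fold changes of low genes are understated. A gene was called at P under 0.01 and more than 2-fold. Single values were tested by exact permutation over 35 splits. Alternatives were edgeR 4.0.16, DESeq2 1.42.0, pseudocounts of 0.1 and 0.5, a mean of at least 1 CPM, P under 0.001, quantile and median-of-ratios scaling, a replicate block and leaving out each library. A loess correction for length and GC content and the transcript length were added after seeing the data. Scripts were tested on simulated data.

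Gene positions and exon lengths came from GENCODE M21 on GRCm38, which matched 24511 of the listed symbols, all 10 members included. RefSeq promoter windows matched 4 members. The members and lists were chosen with earlier results of these data known. From each list the genes past both thresholds were named, with up to 4 more of the smallest P at a mean of at least 1 CPM.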

Additional observations from a re-analysis of the deposited data

Results flagged for a closer look

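In 3 of 44 results checked, 1 EPS library lay far from the other 3: the gap to its nearest neighbor, divided by the range of the group, was above Dixon's critical value for 4 samples, which chance passes in about 1 of every 20 groups. For Tmem8c this value was 0.844, with EPS replicate 2 at 968 CPM and the other EPS libraries at 507 to 579 CPM, and it was 0.795, below the limit, on the log2 scale. For Cdh15 it was 0.906, with EPS replicate 4 at 320 CPM and the others at 401 to 410 CPM. For Stab2 it was 0.931, with EPS replicate 4 at 0.903 CPM and the others at 2.38 to 2.48 CPM.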

How the results depend on the processing

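The count of members past P under 0.01 and 2-fold was 0 in all 18 settings, and that with an adjusted p under 0.05 was 0 in all 17. The number of members whose groups did not overlap was 2 after the loess correction, chosen after seeing the data, which added Kirrel, in a setting where 11.9% of all genes were apart. It was 1 to 2 when each library was left out, with Dock5 added without control replicate 1 and Jam2 without control replicate 4, where 17.5% and 19.7% of all genes were apart. The log2 fold change of Tmem8c turned to -0.08 with the replicate block and -0.02 after loess, and ranged from -0.08 to 0.30 over the left-out libraries. That of Cdh2 turned to 0.01 with the replicate block and ranged from -0.13 to 0.09. That of Ncam1 turned to -0.02 (quantile), -0.07 (median-of-ratios), -0.05 (both edgeR tests), -0.06 (DESeq2) and -0.06 (loess), and ranged from -0.06 to 0.22. The cause was not tested. The other 6 members kept their direction, but over the left-out libraries Jam2 ran from -0.42 (without control 4) to -0.02 (without control 3), Dock1 from 0.06 (without control 4) to 0.56 (without control 1), Kirrel from -0.32 (without control 4) to -0.05 (without control 1), and Jam3 from 0.09 (without control 4, EPS 2 or EPS 4) to 0.33 (without control 3). Jam3, at 0.17 as deposited, was at 0.05 after quantile scaling, 0.07 after median-of-ratios scaling and 0.03 after loess. In the same order, Dock1 went from 0.28 to 0.16, 0.17 and 0.17, and Jam2 from -0.20 to -0.26, -0.31 and -0.33. Kirrel went from -0.21 to -0.27, -0.32 and -0.28.

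The number of wider fusion and adhesion genes past P under 0.01 and 2-fold was 3 of 63 in both edgeR tests, where 3.29% and 3.62% of all genes passed. It was 2 in DESeq2, where 3.06% did, and 2 after loess, where 258 of the 19144 genes did. It was 1 to 2 when each library was left out, where 209 to 325 genes passed among all tested. Elmo1 was added without control replicate 3, Arhgap26 without control replicate 4 and Gm7325 without EPS replicate 2. With the replicate block it was 1, Gm7325 (-1.36), and Vcam1 was at -1.15 and did not pass. EPS replicate 2 has no same-numbered control, so the block estimates equal those without this library. The correlations computed for same-numbered libraries were 0.25, -0.45 and 0.068 over 12256 genes. They are not correlations of plain levels, their scale is not given here, and they are no test of pairing. The labels do not say what equal numbers mark, so the numbers were not taken as pairs. The 3 ratios kept their direction, over ranges of -0.47 to -0.15 (Cdh15 to Cdh2), -0.51 to -0.25 (Jam2 to Jam3) and -0.18 to -0.06 (Dock1 to Dock5). Over all genes the calls were 269 in limma, 629 and 693 in the edgeR tests, 585 in DESeq2, 601 with a pseudocount of 0.1 and 161 with the replicate block.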

Other observations

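Markers of fibroblast, bone and fat cells had reads for all 12 genes listed. Of these, 0 passed P under 0.01 and 2-fold in limma, where 1.41% of all genes did. At an unadjusted P under 0.05, 1 was higher and 2 were lower, where 11.6% of all genes passed. Estimates were higher in the EPS group for 8 of the 12 and lower for 4, with a median log2 fold change of 0.01. Their summed level was 490 to 1140 CPM in the control and 346 to 601 CPM in the EPS group. Postn, a matrix protein, averaged 553 ± 296 CPM over the control libraries (SD, n = 3) and 289 ± 84.0 CPM over the EPS libraries (SD, n = 4), and 886 CPM in control replicate 3 was its highest value. Dcn and Lum, proteoglycans of the matrix, had log2 fold changes of -0.89 and -0.89, so that the genes named here by smallest P include 3 of the 4 lower ones. Lum passed both thresholds in both edgeR tests (-1.22) and DESeq2, after quantile scaling and the loess correction, with the replicate block and without EPS replicate 2. Postn did in both edgeR tests (-1.03), in DESeq2 and without control replicate 4, and Dcn with the replicate block and without EPS replicate 2 (-1.28 in both). Without control replicate 3 Postn was at -0.44, against -0.85 with all libraries. Pdgfra, a receptor of mesenchymal cells, was higher in every EPS library than in every control library, by 0.70 on the log2 scale with an adjusted p of 0.283 in limma, and by 0.43 without control replicate 4. The part of these cells in the levels of the fusion and adhesion genes was not tested.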
